A study of Homo sapiens with 6 samples.

Results

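The SREBP and sterol network, as taken here, is a set of 35 genes that make, sense and move cholesterol and fatty acids, and their transcript levels were described in A375 cells. A375 is an established cell line from human melanoma. Its members were the rows of the expression table whose symbol equals one of 35 listed genes, and all 35 were found among the 28395 genes of the table. The cells carried the label WT for genotype and were cultured in DMEM with 10% fetal bovine serum. They received 0.01% olive oil (OLO, the control) in 3 samples or 0.01% ozonated olive oil (OZO) in 3 samples for 6 h before RNA was taken for sequencing. All levels below are the authors' mean over the 6 libraries of both groups, so a level is a pooled value that need not hold for either group alone, and it carries no replicate error. Values of single libraries and the difference between OZO and OLO were not analysed here.

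Cells keep their sterol content within narrow limits through the SREBP proteins, transcription factors that are made as membrane-bound precursors in the endoplasmic reticulum. When sterols are plentiful, the escort protein SCAP is held there by INSIG proteins. When sterols fall, SCAP carries the precursor to the Golgi, where proteases release the active factor, which turns on genes of sterol synthesis, sterol uptake and fatty acid synthesis. An excess of sterol is sensed through oxysterols by the LXR receptors, which turn on genes of cholesterol export.

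Levels are given as CPM (counts of a gene per 1000000 counted reads of its library) on the linear scale, back from the mean log2 value, and, where genes are compared with each other, as CPM per kilobase of the MANE Select transcript, the single reference transcript chosen for each gene. The offset added before taking logs showed a mean effective library of 18409903 reads. At that depth 3 reads correspond to 0.163 CPM. Intervals around levels are 95% counting intervals from the mean reads of the 6 libraries and cover counting error only, not the spread between cultures.

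All 35 members averaged 10 or more reads per library and lay above 1 CPM. Of the 28395 genes in the table, 13773 (48.5%) had at least 10 reads and 12843 (45.2%) lay above 1 CPM. The members are all protein-coding, while the table also holds other genes. In the largest class of protein-coding genes described below, 64.8% of 14356 had at least 10 reads. The medians and percentiles that follow were not limited to protein-coding genes. Their median level was 38.1 CPM, against 3.89 CPM over the 21383 genes with a read and 22.1 CPM over the genes with at least 10 reads. The members' median thus stood at percentile 75.2 of the genes with a read and at percentile 61.4 of those with at least 10 reads. They were spread widely, from 1.48 CPM for TM7SF2 to 308 CPM for ACLY, a span of 208-fold. Of the 35 members, 7 lay above 100 CPM, 21 between 10 and 100 CPM, and 7 at or under 10 CPM. Against the genes with at least 10 reads, 24 members were above the median and 11 below it, with 11 above the upper quartile and 5 below the lower one.

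**Figure D1:**
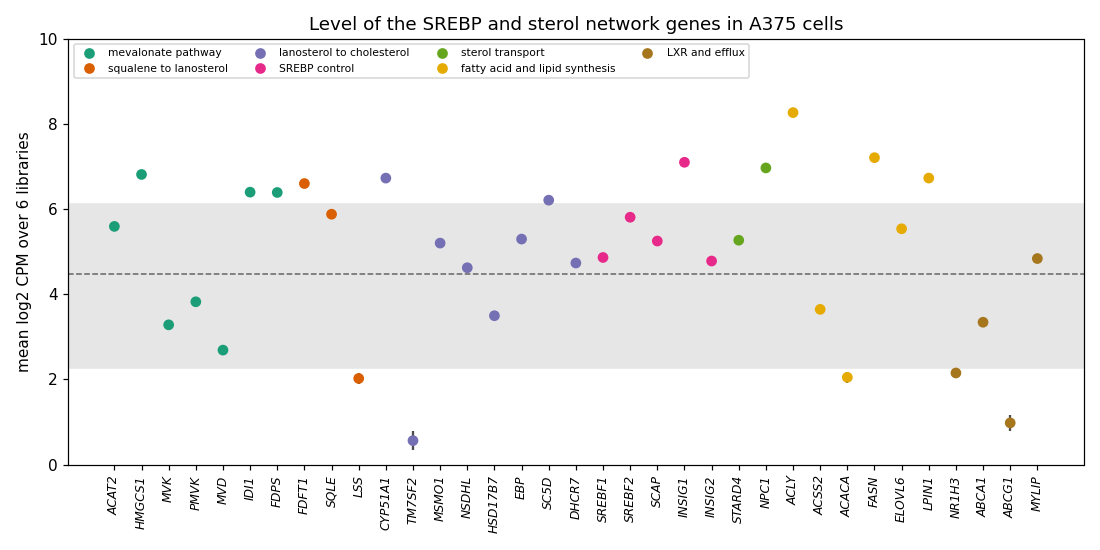
Mean log2 CPM over 6 libraries (vertical axis) for each of the 35 genes (horizontal axis), coloured by role. Bars are 95% counting intervals, the dashed line is the median of genes with at least 10 reads (4.47) and the grey band their quartiles (2.26 to 6.12). ACLY is at the top (8.27) and TM7SF2 at the bottom (0.56).

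**Figure D2:**
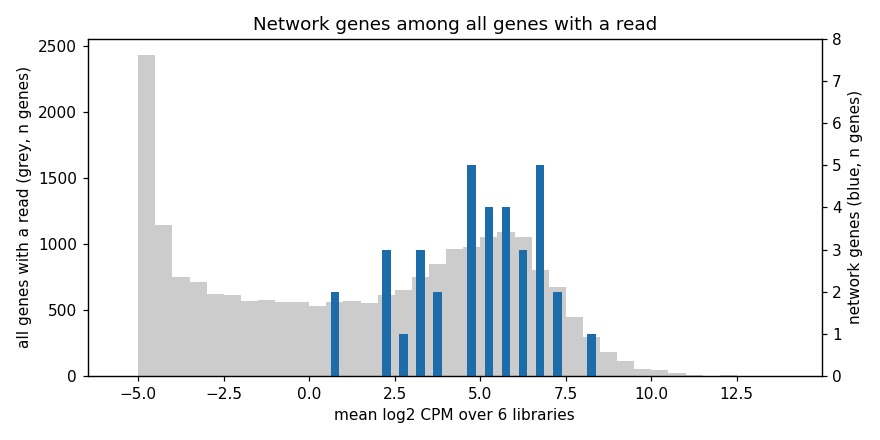
Number of genes per bin of mean log2 CPM, for all genes with a read (grey bars, left axis) and for the 35 network genes (blue bars, right axis). The network genes sit over the right-hand mode of the grey bars, with a median of 5.25 against 1.96 for all genes with a read.

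The labelled cell type was checked against markers. SOX10, a transcription factor of the melanocyte lineage, was at 49.9 CPM and MITF, the main regulator of pigment genes in that lineage, at 27.1 CPM. The pigment genes themselves were low: MLANA was at 2.01 CPM, TYRP1 at 0.626 CPM, PMEL at 0.339 CPM and DCT at 0.285 CPM. TYR had no read in any library, so no level is given for it. S100B was at 2.80 CPM. Markers of other cell types were low too, at 4.24 CPM for KRT14 (keratinocyte), at 4.79 CPM for LUM, 1.24 CPM for COL1A1 and 0.306 CPM for DCN (fibroblast), and at 1.09 CPM for PECAM1 (endothelial). The keratinocyte gene KRT5, the endothelial gene CDH5 and the leukocyte genes PTPRC and CD3E lay under the level of 3 reads (0.163 CPM), so no level is given for them. The lysosomal gene CD68, which is not limited to leukocytes, was at 32.8 CPM.

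SREBP proteins bind short DNA elements close to the start of their target genes, usually beside sites for partner factors such as NF-Y, which binds CCAAT. RefSeq promoter windows (GRCh38.p14, from 250 bases before to 50 bases after a transcription start) were matched to 30 of the 35 members, with 45 windows in all, and were searched on both strands for TCACNCCAC, a form of the sterol regulatory element, and for CCAAT. The 3 stretches printed here lie upstream of the start on the plus strand, and their capitals mark the 2 motifs, with ATTGG standing for CCAAT on the opposite strand. The stretch of SREBF2 (chr22:41832855-41833104) is shown because it was the sole member window with TCACNCCAC, and GENCODE places a non-coding antisense transcript over it. Those of MSMO1 (chr4:165327419-165327658) and NSDHL (chrX:152830813-152830962), both enzymes that strip methyl groups from lanosterol products, are shown for their repeated CCAAT and were chosen after their values were seen.
SREBF2: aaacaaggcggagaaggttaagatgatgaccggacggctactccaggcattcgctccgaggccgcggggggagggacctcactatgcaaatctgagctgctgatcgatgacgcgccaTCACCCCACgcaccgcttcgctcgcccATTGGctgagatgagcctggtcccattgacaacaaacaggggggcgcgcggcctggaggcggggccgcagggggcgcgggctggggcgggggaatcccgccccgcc
MSMO1: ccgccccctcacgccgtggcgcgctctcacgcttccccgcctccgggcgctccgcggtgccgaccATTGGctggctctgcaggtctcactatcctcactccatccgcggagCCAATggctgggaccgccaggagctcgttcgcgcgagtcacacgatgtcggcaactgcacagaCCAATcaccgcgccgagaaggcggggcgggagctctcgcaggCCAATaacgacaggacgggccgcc
NSDHL: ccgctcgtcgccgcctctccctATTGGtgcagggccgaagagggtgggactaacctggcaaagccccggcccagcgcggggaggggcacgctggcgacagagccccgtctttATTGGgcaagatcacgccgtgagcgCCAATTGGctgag

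CCAAT, the shorter of the 2 motifs searched, was matched in more of the members' windows, as it was in all windows. It was found for 21 of the 30 members (70.0%), against 43.7% of the genes with at least 10 reads and 41.3% of all genes of the table with a window. Counted by single windows, 34.6% of all 35116 held it. Restricted to genes with 1 window, so that genes with several starts had no extra chance of a match, the counts were 13 of 20 members (65.0%) against 38.2%. On the strand of the gene alone, the share was 9 of 30 members (30.0%) against 25.6% of the genes with at least 10 reads, a much smaller difference. The 13 genes with 1 window and a copy held 33 copies, 10 on the strand of the gene and 23 on the opposite one, with a median position of -107.5 relative to the start and 21 copies between 150 and 40 bases before it. Positions were not counted for other genes, so this placing is not shown to be particular to the members. By role, 5 of 6 mevalonate genes and 7 of 8 genes of the steps from lanosterol to cholesterol had a copy, and 2 of 5 SREBP control genes did. TCACNCCAC itself was rare, in 1 of 30 members and in 1.46% of genes with at least 10 reads (1.13% of all windows). Dropping its last letter gave 3 members, SREBF2, MSMO1 and MVK (10.0% against 4.66%), and dropping its first letter gave 6 of 30 against 7.80%. A match is a run of letters and no measurement of binding. These shares are descriptions, with no test, of members and motifs chosen with earlier results of these data known.

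**Figure D3:**
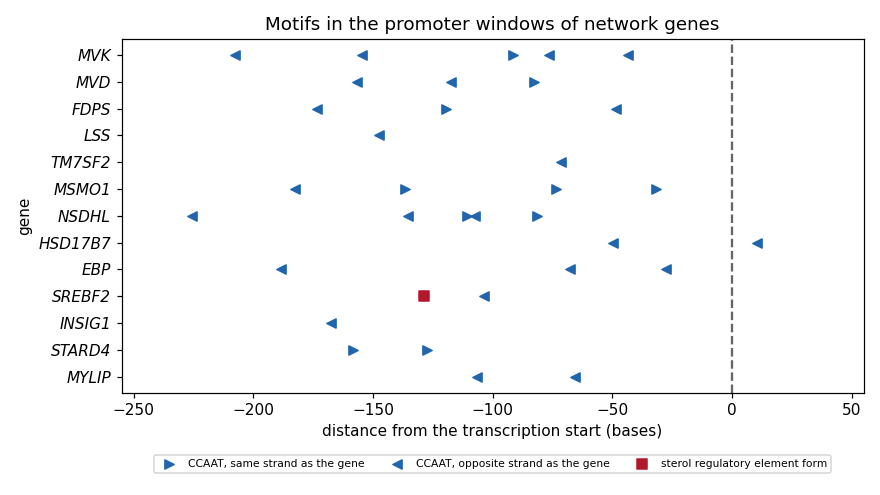
Position of each motif copy (horizontal axis, bases from the transcription start) in the members with a single promoter window and a match (rows). Triangles are CCAAT, pointing right on the strand of the gene and left on the opposite strand, and the square is the TCACNCCAC match of SREBF2. Of 33 CCAAT copies 21 lie between 150 and 40 bases before the start, a count that was not made for other genes.

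The mevalonate pathway, which builds isoprenoid units from acetyl-CoA, had the highest median level per length of the 7 roles, at 21.0 CPM per kilobase over 7 genes. It came 4th on the CPM scale without division by length, where sterol transport came 1st, and 2nd per length without ACACA and LSS. FDPS, which joins isoprenoid units into farnesyl diphosphate, was highest at 59.3 CPM per kilobase (84.0 CPM; chr1:155308866-155320665) and 2nd among all 35 members with MANE transcripts as length. It was 1.92 times IDI1 per kilobase, or 1.15 times with the union of exons. Ranks among all members were not taken with the union of exons and may differ there. ACAT2, the cytosolic thiolase that opens the pathway, stood at 31.8 CPM per kilobase (48.3 CPM) and IDI1, the isomerase that makes the starter unit, at 30.8 CPM per kilobase (84.4 CPM). HMGCS1, the synthase that forms HMG-CoA, stood at 21.0 CPM per kilobase (113 CPM). The 3 enzymes that turn mevalonate into isopentenyl diphosphate were lower. PMVK, the second kinase, was at 14.1 CPM per kilobase (14.2 CPM), the decarboxylase MVD at 3.59 CPM per kilobase (6.45 CPM) and MVK, the first kinase, was lowest at 3.44 CPM per kilobase (9.74 CPM; chr12:109573272-109598125). FDPS was 16.5 times MVD and PMVK 3.94 times MVD per kilobase (10.3 times with the union of exons as length), while the intervals of MVD and MVK overlapped. Parts of the transcripts of HMGCS1 (46.7% of exonic bases), FDPS (41.4%, under RUSC1-AS1) and ACAT2 (36.3%, under TCP1 and SOD2) are also covered by exons on the opposite strand. The library kit marks strand, but the strand setting of the counting is not given in the sources used here, so reads of such partners may not be told apart.

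The role labelled squalene to lanosterol took in 3 genes: FDFT1, which makes squalene, and SQLE and LSS, which act after it. Their levels lay far apart. FDFT1, the squalene synthase that commits farnesyl diphosphate to sterols, was at 47.7 CPM per kilobase (97.1 CPM) and 3rd of all members with MANE transcripts as length. Its counting interval (46.8 to 48.6) overlapped that of INSIG1 (46.5 to 48.0), the 4th, so their order is not settled. SQLE, the oxygenase of the next step, was at 19.9 CPM per kilobase (59.0 CPM). LSS, the cyclase that closes the ring system to lanosterol, was at 0.833 CPM per kilobase (4.07 CPM, 74.4 reads; chr21:46188446-46228774), a level 57.3 times below FDFT1 (34.0 times with the union of exons) and 23.9 times below SQLE. LSS lies in sequence that the genome assembly holds more than once, which is taken up with ACACA below.

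Of the 8 genes of the steps from lanosterol to cholesterol, 7 lay between 7.39 and 34.97 CPM per kilobase and 1 below 1. EBP, the sterol isomerase, was highest at 34.97 CPM per kilobase (39.3 CPM; chrX:48521808-48528716), next to CYP51A1, the lanosterol demethylase, at 33.6 CPM per kilobase (106 CPM). Their ratio was 1.04 (1.004 to 1.076), or 0.874 with the union of exons as length, so their order is not settled. GENCODE places unnamed genes on the same strand over 57.1% of EBP and 90.1% of CYP51A1, whose part in these levels was not tested. MSMO1, the methyl oxidase, followed at 16.5 CPM per kilobase (36.8 CPM), NSDHL, the decarboxylating dehydrogenase, at 13.5 CPM per kilobase (24.7 CPM), and SC5D, the desaturase, at 10.8 CPM per kilobase (74.1 CPM). DHCR7, the reductase that ends the pathway, stood at 10.1 CPM per kilobase (26.6 CPM), and HSD17B7, a keto reductase, at 7.39 CPM per kilobase (11.3 CPM). TM7SF2, a sterol reductase, was the lowest by far at 0.937 CPM per kilobase (1.48 CPM, 26.7 reads; chr11:65111872-65116230). LBR, a nuclear envelope protein that carries the same reductase activity and is no member of the set, was at 232 CPM, and per kilobase 65.9 times TM7SF2 (56.4 to 77.0).

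The genes that control SREBP differed by 7.94-fold per length. INSIG1, which holds SCAP in the endoplasmic reticulum and is itself an SREBP target, was highest at 47.2 CPM per kilobase (137 CPM; chr7:155297878-155310235), and 4th of all members with MANE transcripts as length. Its paralog INSIG2 was at 7.73 CPM per kilobase (27.5 CPM), so that INSIG1 was 6.11 times INSIG2 (5.88 to 6.35) and 5.27 times SCAP. SCAP stood at 8.96 CPM per kilobase (38.1 CPM), which is 0.835 times SREBF2. SREBF2, the gene of the SREBP that mainly drives sterol synthesis, was at 10.7 CPM per kilobase (56.1 CPM), and SREBF1, whose products mainly drive fatty acid synthesis, was lowest at 5.95 CPM per kilobase (29.2 CPM; chr17:17811334-17836986). The ratio of SREBF2 to SREBF1 was 1.80 (1.73 to 1.88), and stayed between 1.66 and 1.97 when the longest transcript or the union of exons gave the length. The proteases that cut SREBP in the Golgi, MBTPS1 and MBTPS2, which are no members, were at 150 CPM and 83.3 CPM, a ratio of 1.83 per kilobase.

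Of the sterol transport genes, NPC1, which moves cholesterol out of lysosomes, was at 26.3 CPM per kilobase (125 CPM) and STARD4, a soluble sterol carrier, at 8.34 CPM per kilobase (38.6 CPM), a ratio of 3.16, or 1.90 with the union of exons. NPC2, the soluble partner of NPC1 in the lysosome and no member, was at 47.6 CPM, and SOAT1, which esterifies cholesterol for storage, at 188 CPM.

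The fatty acid and lipid genes held both ends of the order of levels per length, with a span of 173-fold whose low end is ACACA alone. ACLY, which makes cytosolic acetyl-CoA from citrate, was highest of all 35 members at 71.8 CPM per kilobase (308 CPM, 5676 reads; chr17:41866917-41930545). ACSS2, which makes the same product from acetate, was at 4.34 CPM per kilobase (12.5 CPM), 16.5 times lower than ACLY. LPIN1, a phosphatidate phosphatase, was at 19.5 CPM per kilobase (106 CPM), FASN, the fatty acid synthase, at 17.5 CPM per kilobase (148 CPM) and the elongase ELOVL6 at 7.08 CPM per kilobase (46.5 CPM). ACACA, the cytosolic acetyl-CoA carboxylase that makes the malonyl-CoA used by FASN, was last of all members at 0.414 CPM per kilobase (4.14 CPM, 75.8 reads; chr17:37084992-37406836), 42.3 times below FASN. Like LSS, ACACA lies in sequence that the genome assembly holds more than once. Its last place, the span of this role and its ratios carry the limit given below. ACACB, a paralog of ACACA and no member of the set, was at 11.5 CPM and 2.97 times ACACA per kilobase (2.67 to 3.31, counting error only). SCD, the desaturase that acts on the products of FASN, was at 494 CPM and 5.38 times FASN per kilobase.

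The LXR and efflux genes were the lowest role, with a median of 1.69 CPM per kilobase over 4 genes. MYLIP, a ubiquitin ligase that is an LXR target and limits sterol uptake, was highest at 9.33 CPM per kilobase (28.6 CPM; chr6:16129086-16163887). NR1H3, the gene of LXR alpha, was at 2.40 CPM per kilobase (4.45 CPM), and NR1H2, the gene of LXR beta and no member, was at 54.9 CPM and 9.47 times NR1H3 (8.63 to 10.4). The exporters ABCA1, which loads lipid-poor apolipoprotein, and ABCG1, which loads mature HDL, were at 0.976 CPM per kilobase (10.2 CPM) and 0.663 CPM per kilobase (1.97 CPM, 35.8 reads; chr21:42199689-42297244). Their ratio was 1.47 (1.27 to 1.70), or 2.78 with the union of exons.

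**Figure D4:**
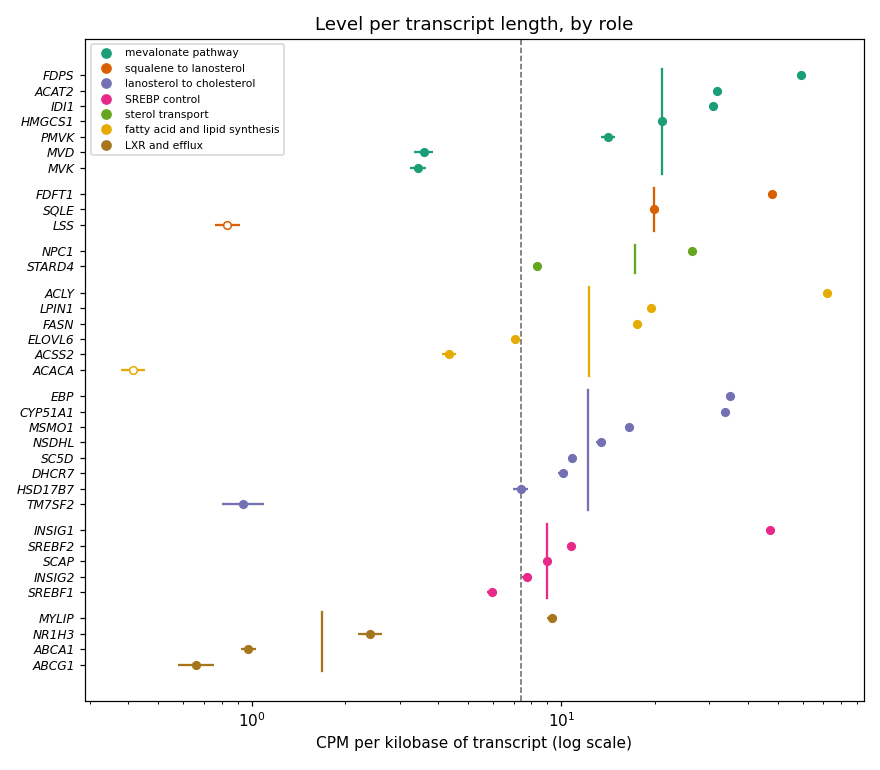
CPM per kilobase of MANE transcript (horizontal log axis) for each gene (rows), grouped by role and ordered by the role's median, with 95% counting intervals. Coloured vertical lines are role medians, the dashed line is the median of genes with at least 10 reads (7.39), and open circles are LSS and ACACA, whose sequence also lies on alternate contigs. Role medians run from 21.0 for the mevalonate pathway to 1.69 for LXR and efflux.

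Over all 35 members the median was 10.7 CPM per kilobase, against 7.39 CPM per kilobase for the genes with at least 10 reads and a length. Both medians use the reference transcript of each gene, and the background was not taken with another length. After the mevalonate pathway came the role labelled squalene to lanosterol (19.9, with FDFT1 included), sterol transport (17.3) and fatty acid and lipid synthesis (12.3). The steps from lanosterol to cholesterol (12.1) and SREBP control (8.96) followed, each a median in CPM per kilobase over 2 to 8 genes. Every role but sterol transport and SREBP control held genes over 10-fold apart, so the order of these medians rests on few genes. Of the 34 pairs of neighbours in the order of single members, 13 had overlapping counting intervals, and their order is not taken as settled. The other pairs are not settled by these intervals either, since the spread between cultures is not in them. Of the 12 further genes of the pathway, all had at least 10 reads, from 11.5 CPM for ACACB to 494 CPM for SCD, with a median of 116 CPM and 30.9 CPM per kilobase. Among them the acyl elongase and desaturase genes ELOVL5 and FADS1 were at 199 CPM and 210 CPM, FADS2 at 19.4 CPM and GGPS1, which extends farnesyl diphosphate, at 67.5 CPM.

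ACACA and LSS differed from the other members in their place in the assembly. The full hg38 assembly holds 261 alternate contigs, second versions of some regions, and a read that fits both versions is commonly left out of counting as ambiguous. Of the runs of 31 bases in the transcript of ACACA, 84.4% also occurred on an alternate contig, and of those of LSS, 79.0%. No other member was above 7.97% (MSMO1), and 25 members were at 0. Over all protein-coding genes, those with at least 75% of their runs on alternate contigs (712 genes) had no read in 53.1% of cases and at least 10 reads in 114 of them. Genes with 25 to 75% (189 genes) had no read in 34.9% of cases and at least 10 reads in 40.2%. Genes with 1 to 25% (3858 genes, 5 of them members) had no read in 7.39% and at least 10 reads in 76.3%, so reads did not fall steadily with the share. Genes with under 1% (14356 genes) had no read in 12.1% of cases and at least 10 reads in 9296 of them (64.8%). Among genes with at least 10 reads the median was 3.22 CPM in the class of at least 75%, 21.9 CPM at 25 to 75%, 32.4 CPM at 1 to 25% and 26.6 CPM under 1%. The contigs are rich in gene families that are not used in every cell type, such as HLA and olfactory receptor genes. Whether the authors' index held these contigs is not given in the sources used here, and their part in the levels of ACACA and LSS was not tested. The ranks, spans and ratios above that involve either gene carry this limit. The class of at least 75% was set after these values were seen.

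**Figure D5:**
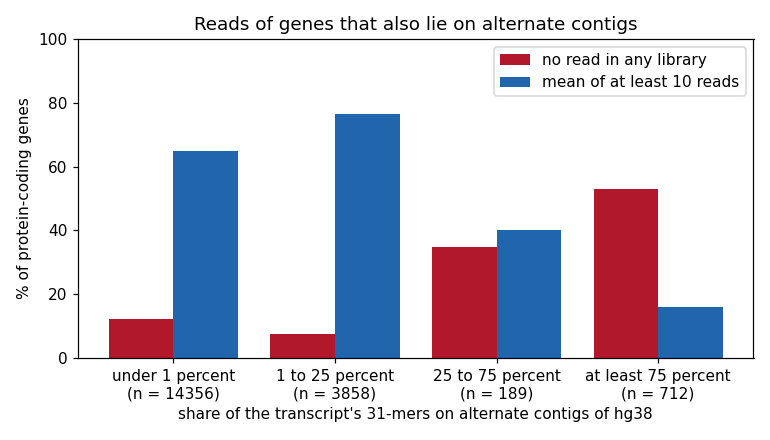
Percent of protein-coding genes (vertical axis) with no read in any library (red) and with a mean of at least 10 reads (blue), by the share of the transcript's runs of 31 bases that also lie on alternate contigs (horizontal axis, with the number of genes). Genes without a read make up 53.1% of the class of at least 75%, which holds ACACA and LSS, and 7.39% of the class of 1 to 25%, the lowest of the 4.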

How the data were processed

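RNA of 6 A375 cultures (3 OLO, 3 OZO, as labelled) was sequenced from strand-marking libraries, and the submitters' processing notes name HISAT2 2.1.0, featureCounts 2.1.1, limma 3.58.1 and the build hg38. The table deposited by the authors holds, per gene, the mean log2 CPM over all 6 libraries (limma-voom, which adds 0.5 to each count). Its filter and strand setting are not given in the sources used here. It holds 7012 genes without a read in any library, so genes without reads had not been removed. The other columns of the table are the authors' own comparison (fold change, moderated t, p, adjusted p and log-odds). They were not used, so no test between OZO and OLO was made, and replicates could not be compared.

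The mean was turned into CPM and reads per library. The effective library size, 18409903 reads, is a geometric mean obtained from the offset: all 5749 low products came out as odd whole numbers within 0.0001. This step was tested on simulated data. Lengths, exon overlaps and coordinates came from GENCODE 44 (GRCh38), with 1 MANE Select transcript for each of the 35 members, and alternate contigs were scanned as runs of 31 bases, with Python 3.11.15 and pandas 2.3.3. Of the table's genes, 2870 had no Ensembl ID. RefSeq windows matched 30 members, while FDFT1, SQLE, ACAT2, FASN and ABCG1 had none.

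The members, lists and motifs were chosen with earlier results of these data known. The naming rule was that all 35 members are given with a level, and in full the highest and lowest of each role, SREBF1, SREBF2, INSIG1, INSIG2, SCAP and any member under 10 reads (none). Alternatives changed the gene background, the level minimum, the transcript length, the offset, the motif and the members.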

Additional observations from a re-analysis of the deposited data

How the results depend on the processing

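The percentile of the members' median among genes was 75.2 with genes that had a read as background, 81.3 with all genes of the table, 69.2 with genes of at least 1 read and 61.4 with genes of at least 10 reads. The median per length was 10.7 CPM per kilobase with MANE transcripts, 9.85 with the longest transcript and 7.37 with the union of exons. The background genes were not taken with the longest transcript or the union of exons, so those values have no like median to stand against. Of the 7 roles, all 7 define the reported order, and 1 kept its place without division by length, 4 kept theirs with the union of exons and 3 without ACACA and LSS. In that last setting the role labelled squalene to lanosterol, then only FDFT1 and SQLE, came 1st and the mevalonate pathway 2nd. TCACNCCAC was in the windows of 1 member, its form without the last letter in 3 and without the first letter in 6. CCAAT was in 21 members on both strands and in 9 on the sense strand alone, where the share of 30.0% stood against 25.6% of genes with at least 10 reads (70.0% against 43.7% on both strands). The other 8 of 19 alternatives moved a level by less than its counting error or a count by less than 1.5 times. Among them, 33 members in place of 35 lay above a level of 2 CPM, and the median per length was 10.8 without ACACA and LSS. The settings without ACACA and LSS and the longest-transcript and union settings for the order of roles were chosen after seeing the data. No paired analysis was possible because the values used are means over all 6 libraries, and for the same reason leaving out a replicate was not run. Depth limits the lowest members most, with a counting error of 0.114 on the log2 scale for TM7SF2 against 0.0078 for ACLY, and the spread between cultures is not in any interval given.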
